A study of Mus musculus with 8 samples.

Results

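The SLC25 genes encode the mitochondrial carrier family, small membrane proteins that exchange nucleotides, phosphate, carboxylic acids, amino acids and cofactors between the cytosol and the mitochondrial matrix. The members described here are the genes whose symbol is Slc25a followed by a number, other than Slc25a20. The table of the study held 41 such genes among 17911 genes, 37 of them autosomal and 4 on chromosome X. Genes of the family that carry other names, such as the uncoupling proteins, were not chosen by this rule. The symbols Slc25a2, Slc25a21, Slc25a41, Slc25a48, Slc25a52 and Slc25a54 were not analysed here.

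Whole hearts of wild-type C57Bl6/J mice had been profiled by RNA sequencing, 4 from males and 4 from females, to compare the sexes. The mice were 4 weeks old in one label and 4 to 6 weeks in another, with no treatment or altered allele named. Each library came from 1 heart, all 8 hearts carried the same batch label, and replicates are numbered as in the labels (females 1 to 4, males 1, 3, 4 and 5). The hearts held 51.7 M to 75.7 M assigned reads each. Female replicates 3 and 4 and male replicate 5 had the fewest. The 10 cardiomyocyte markers examined, such as Myh6 and Tnnt2, were present in every heart, with summed normalized reads of 4672796 to 5118951 in females and 4525291 to 4915572 in males. In whole tissue, fewer cells of a type and less RNA per cell cannot be told apart.

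Most members sit in the inner mitochondrial membrane and are built from a repeated pair of membrane-spanning helices. In heart muscle the ADP/ATP carrier returns ATP made by oxidative phosphorylation to the cytosol in exchange for ADP, and the phosphate carrier brings in the phosphate that ATP synthase uses. The malate-aspartate shuttle, whose carriers are the oxoglutarate carrier and the aspartate/glutamate carriers, moves reducing equivalents from glycolysis into the matrix.

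A single gene, Slc25a4, supplied most of the carrier message in every heart. Levels were compared between genes as normalized reads per kb of exon, using all annotated exons of a gene. Slc25a4, the ADP/ATP carrier of heart and skeletal muscle, averaged 120998 reads per kb over the 8 hearts. This was 66.3% of the summed reads per kb of the 41 genes, with a range of 65.4% to 66.9% over single hearts. Slc25a3, the phosphate carrier, followed at 16512 reads per kb (9.05%), and Slc25a11, the oxoglutarate/malate carrier, at 13504 (7.40%). Slc25a5, the ADP/ATP carrier of most dividing and non-muscle cells, stood at 8775 (4.81%), and the orphan carrier Slc25a34 at 5044 (2.77%). The Slc25a5 count is uncertain, as described below with the X-linked members. Those 5 genes held the same order when the length of the principal transcript replaced that of all exons. The choice of length moved the shares, because the exons of Slc25a3 span 5550 bases in all and 1612 in its principal transcript. By principal transcript, Slc25a4 held 55.9% of the sum and Slc25a3 21.5%, and the ratio of Slc25a4 to Slc25a3 was 2.60 in place of 7.33.

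The next places were taken by the aspartate/glutamate carriers, glutathione and coenzyme A. Slc25a13 (citrin, an aspartate/glutamate carrier) averaged 2594 reads per kb. Slc25a39, a glutathione carrier, averaged 2367. Slc25a12 (aralar, the other aspartate/glutamate carrier) averaged 2135. Slc25a42, a coenzyme A carrier, averaged 1040, and Slc25a51, the NAD carrier, 869. In all, 9 members exceeded 1000 reads per kb, 23 lay between 100 and 1000, and 9 were under 100. The lowest were Slc25a53 (14.6), Slc25a18 (12.1), Slc25a31 (10.7) and Slc25a43 (8.82), so the family spanned 13722-fold.

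Neighbours in this order were often close. In 30 of the 40 neighbouring pairs the ranges over the 8 hearts overlapped, and in 23 of these at least 1 heart had the other order. In the remaining 7 overlapping pairs the higher gene was higher in each of the 8 hearts. From Slc25a4 down to Slc25a13 the ranges did not overlap, with ratios of 7.33, 1.22, 1.54, 1.74 and 1.94. The ranges of Slc25a39 and Slc25a12 (1.11) and of Slc25a12 and Slc25a42 (2.05) were also apart. Slc25a13 and Slc25a39 overlapped in range, with Slc25a13 higher in 8 of 8 hearts (ratio 1.10), and they exchanged places under the principal transcript length.

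**Figure D1:**
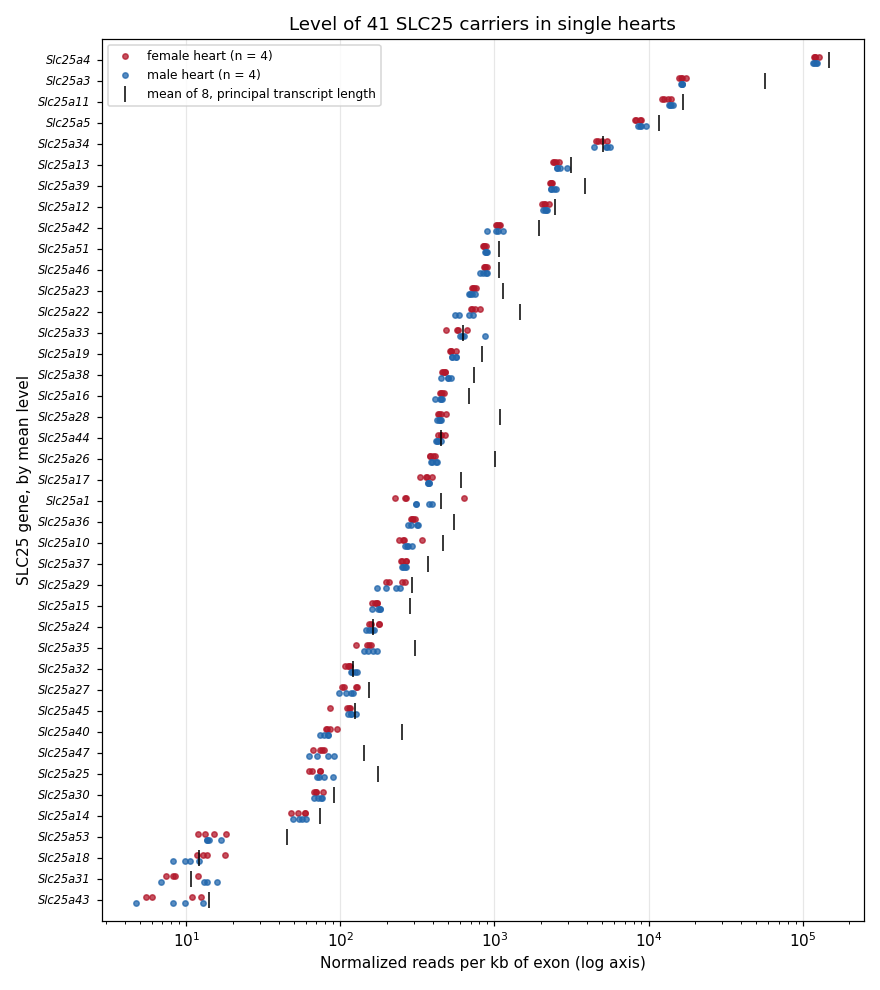
Normalized reads per kb of exon (log axis) for the 41 SLC25 genes, ordered by mean level, with 1 point per female or male heart and a black tick for the mean under principal transcript length. Slc25a4 stands alone at the top at a mean of 120998, and the points of the sexes overlap for every gene but Slc25a32.

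No member passed the test of female against male hearts. limma called 0 of the 41 genes at an adjusted p under 0.05, adjusted over the whole table, where 1.16% of all genes were called. At an unadjusted p under 0.05 limma found 4 members, 1 higher in females (Slc25a22) and 3 lower (Slc25a11, Slc25a25 and Slc25a32), against 16.0% of all genes. The smallest adjusted p of a member was 0.236 (limma, Slc25a22). edgeR's quasi-likelihood test, DESeq2 and limma-voom on the recovered reads also called 0 members, with 2, 4 and 4 at an unadjusted p under 0.05. Over all genes with an adjusted p, these tests called 166 of 17911, 690 of 14088 and 207 of 17911. DESeq2 gave no adjusted p for 3 members. In the authors' deposited table, 0 members had an adjusted p under 0.05, 4 had an unadjusted p under 0.05, and 3 had no adjusted p. The share of all genes at an unadjusted p under 0.05 was taken for limma only (16.0%). The unadjusted counts of the other tests and of the authors therefore have no share beside them and cannot be read as many or few.

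The differences were small in size. The median log2 fold change of the members, female over male, was -0.03, beside 0.00 over all genes. The median size of the change was 0.05 for members and 0.08 for all genes. These sets were not matched for level, since 38 of 41 members and 12777 of 17911 genes had a mean above 100 normalized reads. Values were negative for 26 members and positive for 15, beside 8792 negative and 9119 positive over all genes. Of the members, 0 reached the size of 0.6 that the series text uses as a threshold. For 31 members the whole 95% interval of the log2 fold change lay within 0.32 of zero, and for 13 it lay within 0.15. The hearts of the sexes failed to overlap for 1 member, Slc25a32, whereas 9.35% of all genes showed no overlap.

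**Figure D2:**
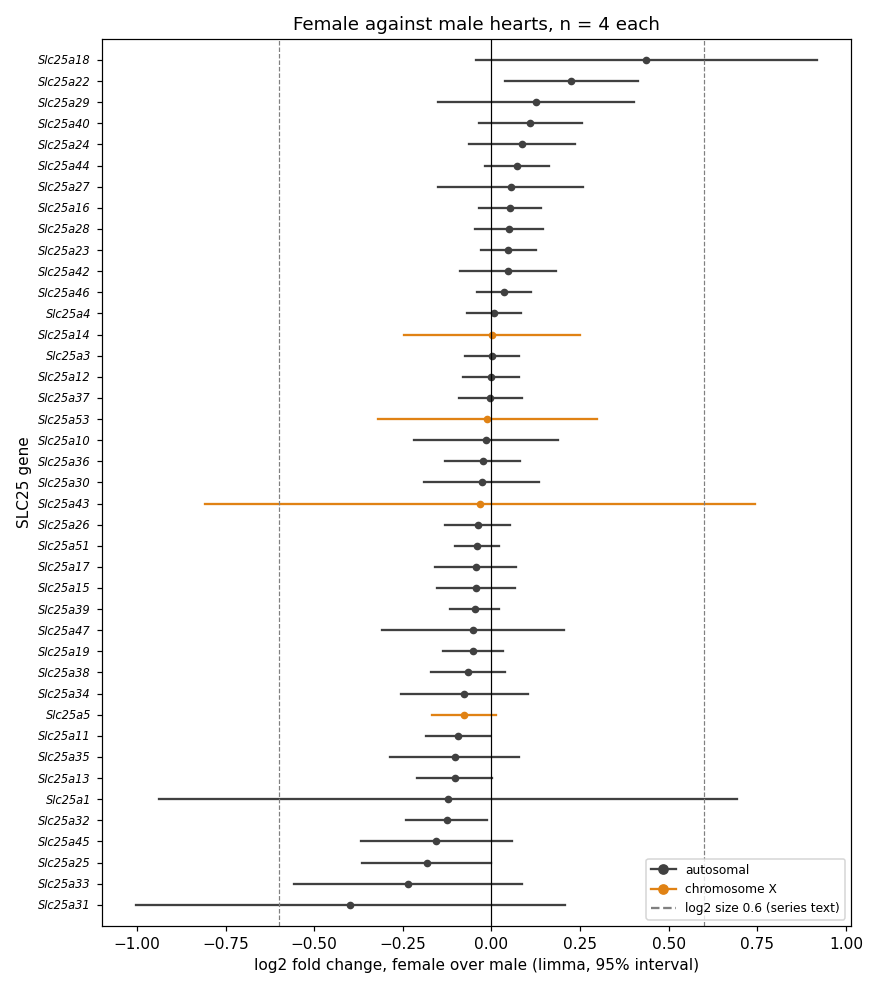
log2 fold change, female over male, of each SLC25 gene with its 95% interval from limma (n = 4 hearts per sex), autosomal genes in grey and X-linked genes in orange; dashed lines mark a size of 0.6. Points lie between -0.40 (Slc25a31) and 0.44 (Slc25a18), and the widest intervals belong to genes of low level and to Slc25a1.

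The ADP/ATP and phosphate carriers, 4 genes with 80.2% of the family's reads per kb, contained no called gene. Slc25a4 (ENSMUSG00000031633, chr8:46206797-46211284 in mm10, minus strand) had 277934, 282124, 298332 and 282977 normalized reads in female replicates 1 to 4. The males had 274479, 280773, 287935 and 293115 in replicates 1, 3, 4 and 5. The female values spanned nearly the same range as the male ones, with means of 285342 ± 8936 and 284075 ± 8157 (SD over 4 hearts). The log2 fold change was 0.01 (limma SE 0.03, adjusted p = 0.952), and its 95% interval, as a percent of the male level, ran from -4.70% to 5.86%.

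Slc25a3 was as even. Its females had 89914, 91264, 97692 and 88009 normalized reads and its males 90120, 92067, 91907 and 92140. The male hearts were closer together than the female hearts, with SDs of 964 and 4199 around means of 91559 and 91720. The log2 fold change was 0.00 (limma adjusted p = 0.990). Slc25a31, the ADP/ATP carrier known from the testis, had the lowest log2 fold change of the family, was named after its values were seen, and was close to the floor of the table. It had 15.8 to 25.2 normalized reads in females and 14.6 to 33.9 in males, with a log2 fold change of -0.40 (95% interval, as a percent of the male level, -50.1% to 15.4%, limma adjusted p = 0.533).

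Slc25a5 is one of the 4 X-linked members, and it lies next to another of them. Slc25a43, an orphan carrier, occupies chrX:36743659-36777202 on the plus strand, and Slc25a5 (ENSMUSG00000016319) follows on the same strand at chrX:36795651-36798807. The 250 bases before the RefSeq start of Slc25a5 (GRCm38.p6, chrX:36795347-36795596, plus strand) are shown because this gene carries the highest X-linked signal of the family, with the only match to the motifs searched, a GC box (GGGCGG, here on the opposite strand), in capitals.
Slc25a5: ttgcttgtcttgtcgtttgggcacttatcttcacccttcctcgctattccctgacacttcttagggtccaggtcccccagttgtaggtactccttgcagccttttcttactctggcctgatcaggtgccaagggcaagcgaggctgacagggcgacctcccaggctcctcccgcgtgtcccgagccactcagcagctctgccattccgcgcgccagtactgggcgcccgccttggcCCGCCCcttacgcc

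None of the 4 X-linked carriers was called between the sexes. Slc25a5 had 13636, 13495, 14396 and 14680 normalized reads in females and 14126, 15860, 14554 and 14802 in males. Male replicate 3 was highest, and the sexes overlapped, with means of 14052 ± 576 and 14835 ± 738. The log2 fold change was -0.08 (SE 0.04, 95% interval -0.17 to 0.01, limma adjusted p = 0.383), and -0.045 without male replicate 3. Of the 50-base stretches of Slc25a5 transcripts, 46.6% also occur in transcripts of other genes, mostly processed copies such as Gm5560, so its count is uncertain where the authors' counting could divide such reads.

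The remaining X-linked members were low. Slc25a14 (chrX:48623413-48662294, plus strand), a relative of the uncoupling proteins, had 125, 113, 141 and 140 normalized reads in females. The males had 117, 133, 141 and 127, so both sexes covered the same range. Its log2 fold change was 0.00 (95% interval -0.25 to 0.25, limma adjusted p = 0.997). Slc25a53 (chrX:136981116-137038302, minus strand), an orphan carrier, had 95.1, 105, 120 and 144 in females and 109, 112, 109 and 134 in males. Its highest values came from female replicate 4 and male replicate 5, and its log2 fold change was -0.01 (95% interval -0.32 to 0.30, limma adjusted p = 0.978). Slc25a43 ranged from 9.74 to 22.3 in females and from 8.45 to 23.0 in males. Its 95% interval was -0.81 to 0.74 on the log2 scale, so changes of either direction within these limits remain possible.

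All 5 measured carriers of shuttles and carboxylates had negative log2 fold changes by limma, with a median of -0.09, but 0 of the 5 were called. The sign was not stable for Slc25a12, Slc25a1 and Slc25a10, which turned positive in 7, 8 and 7 of 20 alternatives. Slc25a11 (chr11:70644196-70647479, minus strand) had 28475, 26769, 29671 and 25919 normalized reads in females and 28772, 29204, 29828 and 30395 in males. Female replicate 3 reached into the male range and the other 3 females lay below it. The means were 27709 ± 1686 and 29550 ± 711, a log2 fold change of -0.09 (SE 0.04, unadjusted p = 0.0429, limma adjusted p = 0.293). The exons of Slc25a11 overlap Rnf167 on the opposite strand by 189 bases (8.92% of its exon length). Whether reads were counted by strand is not known from the labels or headers.

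Neither of the aspartate/glutamate carriers was called, and Slc25a13 had means of 9491 ± 394 in females and 10214 ± 720 in males. Slc25a13 had 9269, 9128, 10023 and 9542 normalized reads in females and 9724, 10189, 9703 and 11241 in males. Male replicate 5 was highest, and the log2 fold change was -0.10 (SE 0.05, unadjusted p = 0.0508, limma adjusted p = 0.313), or -0.057 without that heart. Slc25a12 had means of 15668 ± 729 and 15677 ± 365, with a log2 fold change of -0.00 (limma adjusted p = 0.989).

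The citrate carrier Slc25a1 and the dicarboxylate carrier Slc25a10 were set apart by 1 heart, and they are described because of that, having been chosen after their values were seen. Slc25a1 (ENSMUSG00000003528, chr16:17925223-17928219, minus strand) exports citrate, the carbon source of fatty acid synthesis. It had 1380, 493, 572 and 574 normalized reads in females and 672, 811, 854 and 675 in males. Female replicate 1 stood at 2.05 times the median of the other 7 hearts, and the other 3 females lay below every male. The means were 755 ± 419 and 753 ± 93.8, and the log2 fold change was -0.12 (95% interval -0.94 to 0.69, limma adjusted p = 0.904). Without female replicate 1 the log2 fold change was -0.46 (limma adjusted p = 0.0655), which was the smallest adjusted p of any member under any alternative tried.

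Slc25a10 (chr11:120491840-120499187, plus strand), which exchanges malate and succinate for phosphate, showed the same heart on top by less. Its females had 1163, 833, 891 and 887 normalized reads and its males 902, 935, 946 and 1003. Female replicate 1 was at 1.29 times the median of the other 7 hearts. The log2 fold change was -0.02 (limma adjusted p = 0.955) with that heart and -0.12 (limma adjusted p = 0.336) without it.

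Most adipocyte markers were also highest in this heart. Of the 9 measured, 7 were highest in female replicate 1, and none was at 0 in any heart. Adiponectin (Adipoq) had 1283 normalized reads there and 226 to 592 in the other hearts, and perilipin 1 (Plin1) had 1481 against 306 to 653. The summed level of the 9 markers was 19359 in female replicate 1 and 7610 to 10504 in the other females. It was 8057 to 10783 in males. The other hearts did not keep 1 order for both: male replicate 4 had the lowest male sum (8057) and the highest male Slc25a1 (854). Male replicate 1 had the highest male sum (10783) with Slc25a1 at 672. The brown fat markers Ucp1 and Cidea were highest in other hearts, and 0 of the 9 markers were called between the sexes by limma, with 2 at an unadjusted p under 0.05. Their part in the values of Slc25a1 and Slc25a10 was not tested.

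**Figure D3:**
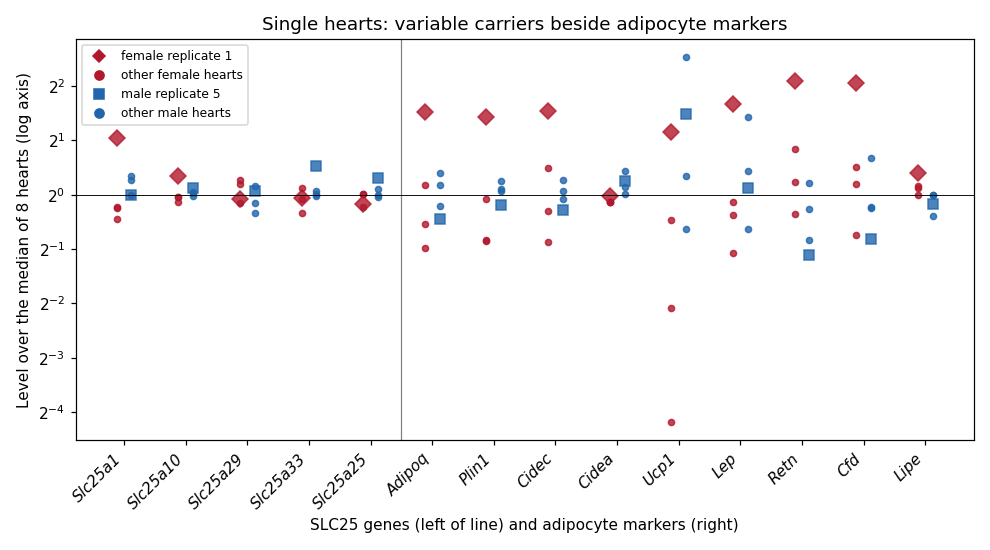
Level of 5 chosen SLC25 genes (left, not the 5 most variable) and of 9 adipocyte markers (right), each divided by its median over the 8 hearts (log axis). Diamonds are female replicate 1, squares male replicate 5 and small points the other hearts. Over all 41 members, female replicate 1 was highest for 3 and lowest for 4, and male replicate 5 was highest for 8 and lowest for 6. Female replicate 1 is highest for Slc25a1, Slc25a10 and 7 of the markers, and male replicate 5 is highest for Slc25a33 and Slc25a25.

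The 250 bases before the RefSeq start of Slc25a1 (GRCm38.p6, chr16:17928220-17928469, minus strand) are shown because Slc25a1 varied most among members with over 100 normalized reads. Capitals mark an E-box near the 5′ end, then the reverse complement of a CCAAT box, then 4 GC boxes, the first 2 of them on the opposite strand.
Slc25a1: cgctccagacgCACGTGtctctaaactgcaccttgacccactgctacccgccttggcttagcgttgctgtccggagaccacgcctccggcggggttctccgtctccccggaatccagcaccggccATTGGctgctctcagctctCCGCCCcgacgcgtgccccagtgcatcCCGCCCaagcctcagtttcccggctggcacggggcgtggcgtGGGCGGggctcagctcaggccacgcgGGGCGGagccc

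Windows of the same 250 bases were in the RefSeq table for 32 of the 41 members, some with several starts, which gave 41 windows. On either strand, GGGCGG was present in 30 of these windows (73.2%, from 23 of the 32 genes) and in 32.7% of all 32851 windows of the table. CCAAT was present in 20 of them (48.8%, from 17 genes) and in 33.8% of all windows. CACGTG was present in 8 (19.5%, from 7 genes) and in 6.02% of all. TATAAA, the TATA box, was present in 1 window and in 12.4% of all. The core of a sterol response element, TCACNCCAC, was present in 1 window (1.05% of all). TCAAGGTCA, a site of oestrogen-related receptors, was present in 0 (0.387% of all). The windows of 1 gene are not independent, and the set of all windows was not matched to the members. A match describes the letters of a window and is not evidence of binding.

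The carriers of amino acids and glutathione included the member with the smallest p. Of 8 measured genes, 5 had positive log2 fold changes, the median was 0.09, and 0 were called. Slc25a22 (ENSMUSG00000019082, chr7:141429744-141437892, minus strand) carries glutamate into the matrix. It had 4478, 4832, 4292 and 4244 normalized reads in females and 4082, 4355, 3349 and 3544 in males. Male replicates 4 and 5 were lowest, while male replicate 3 lay within the female range. The means were 4461 ± 267 and 3832 ± 466, and the log2 fold change was 0.23 (SE 0.08, 95% interval 0.04 to 0.41, unadjusted p = 0.0237, limma adjusted p = 0.236). In the authors' deposited table its adjusted p was 0.0848. Its paralogue Slc25a18 had 26.2, 22.3, 24.5 and 34.1 in females and 20.1, 23.2, 18.8 and 15.7 in males. This low gene had the highest log2 fold change of the family, 0.44 (95% interval -0.04 to 0.92, limma adjusted p = 0.362), and male replicate 3 lay inside the female range.

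Slc25a39 and Slc25a40 both carry glutathione. Slc25a39 averaged 6415 ± 84.8 normalized reads in females and 6633 ± 225 in males, a log2 fold change of -0.05 (limma adjusted p = 0.506). Slc25a40 averaged 722 ± 56.9 and 668 ± 38.8, a log2 fold change of 0.11 (limma adjusted p = 0.455). The other measured members of this group ran from a log2 fold change of -0.07 for Slc25a38, the glycine carrier that haem synthesis needs, to 0.13 for the basic amino acid carrier Slc25a29, which ran from 0.036 to 0.20 when 1 heart was left out. Slc25a44, the carrier of branched-chain amino acids, had 0.07.

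Among carriers of cofactors and nucleotides, 7 of 9 measured genes had negative log2 fold changes (median -0.04) and 0 were called. Slc25a36 and Slc25a17 turned positive in 3 and 1 of 20 alternatives, and Slc25a42 turned negative in 2 of 20. Slc25a32, the folate and FAD carrier, was the one member without overlap between the sexes and is named for that, after its values were seen. Its females had 648, 701, 697 and 677 normalized reads and its males 722, 713, 758 and 781. The gap between the groups was narrow, and the log2 fold change was -0.13 (SE 0.05, unadjusted p = 0.0324, limma adjusted p = 0.266). The pyrimidine nucleotide carrier Slc25a33 (chr4:149744036-149774277, minus strand) had 1103, 911, 1245 and 1085 in females and 1201, 1159, 1135 and 1651 in males. Male replicate 5 exceeded all others, and the log2 fold change was -0.24 (limma adjusted p = 0.465) with it and -0.11 (limma adjusted p = 0.571) without it. An antisense gene, Gm13068, overlaps 14.9% of the exon length of Slc25a33. Its paralogue Slc25a36 averaged 2819 ± 66.8 and 2873 ± 212, a log2 fold change of -0.02 (limma adjusted p = 0.853).

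Slc25a51 and Slc25a42 were among the 10 members of highest level by all exons. Slc25a51 held place 10 narrowly, at 1.01 times the mean of Slc25a46 and above it in 2 of 8 hearts. By principal transcript length Slc25a51 ranked 13. Slc25a51 had the lowest variation within a sex of all members, a coefficient of variation of 1.57%. It averaged 4720 ± 79.1 normalized reads in females and 4854 ± 70.9 in males (log2 fold change -0.04, limma adjusted p = 0.537). Slc25a42 had 6130, 6512, 6426 and 6224 in females and 6802, 6301, 5357 and 6120 in males. The females lay inside the male range, with a log2 fold change of 0.05 (limma adjusted p = 0.776).

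The calcium-regulated ATP-Mg/phosphate carriers, which adjust the adenine nucleotide pool of the matrix, held 0 called of 3 measured genes. Slc25a23 averaged 3890 ± 94.7 normalized reads in females and 3767 ± 153 in males (log2 fold change 0.05, limma adjusted p = 0.569). Slc25a24 averaged 574 ± 45.8 and 539 ± 26.7 (0.09, limma adjusted p = 0.586). Slc25a25 had 513, 492, 577 and 579 in females and 573, 557, 620 and 708 in males. Its highest value came from male replicate 5, and its log2 fold change was -0.18 (SE 0.08, unadjusted p = 0.0498, limma adjusted p = 0.312), or -0.11 without that heart.

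The mitoferrins, which bring iron into mitochondria, were level between the sexes. Slc25a37 (mitoferrin-1) averaged 1552 ± 61.6 normalized reads in females and 1555 ± 37.9 in males (log2 fold change -0.00, limma adjusted p = 0.981). Slc25a28 (mitoferrin-2) averaged 1699 ± 91.9 and 1640 ± 48.0 (0.05, limma adjusted p = 0.642). Markers of erythroid cells, which use mitoferrin-1 for haem synthesis, were called for 0 of 6 measured genes, and their sum ranged from 14186 to 25189 in females and 14441 to 21865 in males. Slc25a27 and Slc25a30, the autosomal relatives of the uncoupling proteins, had log2 fold changes of 0.05 and -0.03.

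Less defined carriers were negative in 6 of 7 measured genes (median log2 fold change -0.05), and 0 were called. The sign was not stable for Slc25a43, Slc25a53 and Slc25a47, which turned positive in 6 of 19, 5 of 20 and 2 of 20 alternatives. Slc25a34 was the only one of high level. It had 13281, 12494, 12171 and 14456 normalized reads in females and 14109, 14360, 11852 and 15015 in males. Both sexes covered a similar range, with a log2 fold change of -0.08 (limma adjusted p = 0.701) that ran from -0.15 to -0.035 when 1 heart was left out. Slc25a35 shares 31.3% of its exon length with Rangrf on the opposite strand, so its value of -0.10 is uncertain without a known strand setting. Slc25a47, a carrier known from the liver, lies beside Slc25a29 on chromosome 12 and had 188 to 273 normalized reads over the 8 hearts.

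Related carriers were also compared within each heart, where the size factor cancels. For 8 pairs of related genes the log2 ratio was compared between the sexes by a two-sided exact permutation test, whose smallest possible p is 0.0286, with adjustment over the 8 pairs. None of the 8 had an unadjusted p under 0.05. Slc25a5 made up 6.58% ± 0.227 of the ADP/ATP pair with Slc25a4 in females, against 6.95% ± 0.353 in males (reads per kb, SD over 4 hearts). The females had 6.55%, 6.40%, 6.45% and 6.90%, and the males 6.85%, 7.47%, 6.74% and 6.73%. Female replicate 4 lay within the male range and male replicate 3 lay above all others, a log2 difference of -0.08 (exact permutation p = 0.114, adjusted p = 0.229). Without male replicate 3 the difference was -0.046. Slc25a4 exceeded Slc25a5 by 13.8 times on average. The uncertainty of the Slc25a5 count, from stretches shared with other genes, applies to this ratio and to the shares of the pair.

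Among the other pairs, Slc25a25 against Slc25a23 had the smallest p. Slc25a25 made up 8.55% ± 0.669 of that pair in females and 9.90% ± 1.12 in males, a log2 difference of -0.23 (exact permutation p = 0.0571, adjusted p = 0.229, n = 4 each), or -0.15 without male replicate 5. Slc25a40 made up 3.57% ± 0.304 and 3.21% ± 0.211 of the glutathione pair with Slc25a39 (exact permutation p = 0.0857, adjusted p = 0.229). Citrin (Slc25a13) and aralar (Slc25a12) were near balance, and citrin made up 53.9% ± 0.942 in females and 55.7% ± 1.33 in males (exact permutation p = 0.114, adjusted p = 0.229). Mitoferrin-1 made up 36.3% ± 1.09 and 37.1% ± 1.20 of the mitoferrin pair (exact permutation p = 0.257, adjusted p = 0.343). Slc25a18 made up 1.86% ± 0.432 and 1.57% ± 0.155 of the glutamate pair with Slc25a22 (exact permutation p = 0.229, adjusted p = 0.343). Slc25a33 held 66.0% ± 3.42 and 69.1% ± 4.82 of the pyrimidine nucleotide pair with Slc25a36 (exact permutation p = 0.400, adjusted p = 0.457), and Slc25a24 held 18.5% ± 1.34 and 18.1% ± 0.924 of its pair with Slc25a23 (exact permutation p = 0.629). The balance of the pyrimidine pair turns on the length used, since Slc25a33 is above Slc25a36 by 2.13 times with all exons and close to it, with Slc25a36 at 0.891 times Slc25a33, by principal transcript. Under that length Slc25a22 over Slc25a18 moved from 59.1 to 126, and Slc25a39 over Slc25a40 from 28.7 to 15.6. Slc25a28 over Slc25a37 moved from 1.73 to 2.92, Slc25a23 over Slc25a24 from 4.48 to 7.05, and Slc25a23 over Slc25a25 from 9.97 to 6.58. Slc25a4 over Slc25a5 (13.8 to 12.7) and Slc25a12 over Slc25a13 (0.825 to 0.784) moved least. The shares given here are by all exons.

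**Figure D4:**
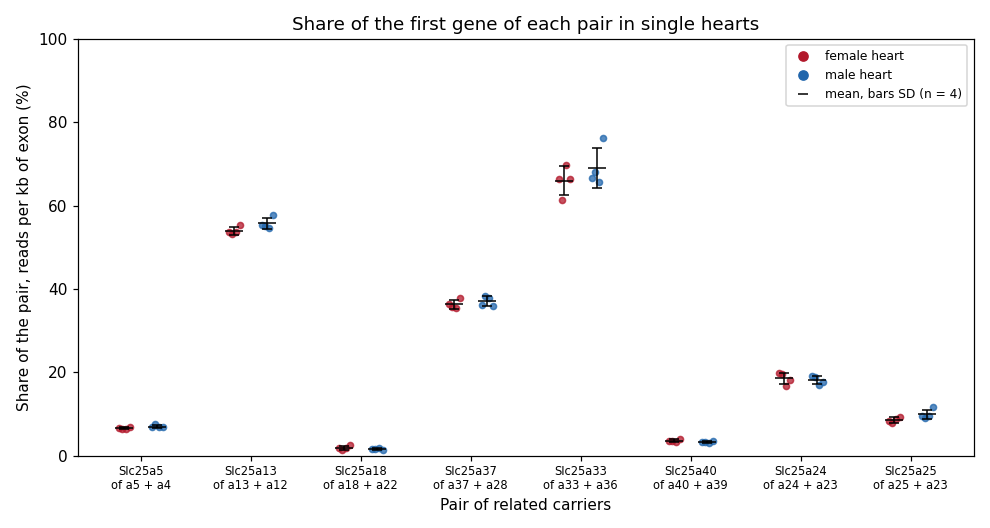
Share of each gene in its pair with a related carrier (percent of the summed reads per kb of exon), with 1 point per heart and the mean and SD of each sex (n = 4). The points of the sexes overlap in all 8 pairs, whose means run from 1.57% and 1.86% for Slc25a18 to 69.1% and 66.0% for Slc25a33.

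Variation between hearts of 1 sex was low for most members. The median coefficient of variation within a sex was 5.73% over the 41 members and 7.60% over all genes. Among genes with a mean above 100 normalized reads it was 5.28% for 38 members and 5.25% for 12777 genes. The highest heart exceeded the lowest by more than 1.5 times for 7 members and by more than 2 times for 4. Female replicate 3 was the highest heart for 9 members and male replicate 5 for 8.

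Genes that work with the carriers were read from 4 lists. The first held 16 measured genes of the proteins that import carriers into the inner membrane (the TIM22 route and the TOM complex). Their median log2 fold change was -0.04, with 13 negative values. In females 0 were called higher and 1 was called lower, where 1.16% of all genes were called in either direction. The called gene was Tomm5, a small subunit of the TOM complex. It had 3373, 3362, 3528 and 3374 normalized reads in females and 3790, 4207, 3865 and 3972 in males. All females lay below all males, a log2 fold change of -0.21 (limma SE 0.04, adjusted p = 0.0200). The call was lost in 3 of the 8 fits that left out 1 heart, with limma adjusted p = 0.0773 without female replicate 2, 0.0509 without female replicate 4 and 0.0505 without male replicate 3. The log2 fold change in the 8 fits ran from -0.24 to -0.18. Timm22, Timm8b and Tomm20 also had all females below all males but were not called (limma adjusted p = 0.0842, 0.0834 and 0.214). Over all genes, 9.35% showed no overlap of the sexes in either direction.

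The other lists held no called gene. The uncoupling proteins and 2 further family members, Mtch1 and Mtch2, had 0 called of 5 (median log2 fold change -0.06). Other transporters of the inner and outer membrane, among them the pyruvate carrier and the calcium uniporter, had 0 of 22 (median -0.01). Enzymes of the shuttles and of phosphate transfer, such as malate dehydrogenase and creatine kinase, had 0 of 10 (median -0.02). Cell type markers did differ in places. Over all genes, limma called 1.16%, and 16.0% had an unadjusted p under 0.05. Macrophage markers were negative in all 10 genes (median log2 fold change -0.37), 3 of them called lower in females, and their sum was 21292 to 24889 in females and 25876 to 32362 in males. The 10 markers of dividing cells, in which Slc25a5 is known to be the main ADP/ATP carrier, were negative in all 10 genes (median -0.44), 7 of them at an unadjusted p under 0.05 and 0 called by limma. Of 10 fibroblast markers, 1 was called higher in females, Lum at a log2 fold change of 0.30 with a limma adjusted p of 0.00285. Of 10 cardiomyocyte markers, 1 was called higher, Ryr2 at 0.20 with a limma adjusted p of 0.0341. Of 7 measured skeletal muscle markers, 5 were negative and 0 were called. Their sum, most of it from Ckm, was 127028 to 132950 in females and 146869 to 164250 in males. Among them Acta1 was lower in all females than in all males, at a log2 fold change of -0.93 (limma adjusted p = 0.193). The part of these cells in the carrier values was not tested.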

How the data were processed

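Per the values and the file headers, the deposited table holds 1 signal column per heart: read counts per gene that the authors divided by a size factor (0.821 to 1.17). It also holds the authors' log2 fold change and p-values, raw and adjusted. Every value was a whole multiple of 1 read (100%, tolerance 0.001), and the gene with the fewest reads had 81. The build was mm10, per the submitters' processing notes; for the aligner, counter and strand setting, nothing is given in the sources used here. The labels name a small RNA isolation kit and total RNA.

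The main test was limma 3.58.1 (R 4.3.3, trend and robust) on log2(value + 1), female minus male, over 17911 genes, with calls at an adjusted p (Benjamini-Hochberg) under 0.05. Fold changes on this scale understate those of low genes. A value of at least 1 in 4 hearts was required, which removed none of the genes. Alternatives were edgeR 4.0.16, DESeq2 1.42.0 and limma-voom on recovered reads, other pseudocounts and filters, replicate blocks, leaving out each heart, total reads as a covariate and the 5 deepest hearts; principal transcript lengths and the alternatives for Tomm5 were added after seeing the data. limma was tested on simulated data. Exon lengths came from GENCODE vM21 (GRCm38), matched for all 41 members. Labels give single hearts, so p-values measure spread between hearts. The members and lists were chosen with earlier results of these data known. The genes described one by one were the 10 of highest level, those on chromosome X, those of the paralogue pairs and any called; other members named with values were chosen after those were seen.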

Additional observations from a re-analysis of the deposited data

Results flagged for a closer look

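In 98 groups of 4 hearts (82 of them members in 1 sex), 5 had a heart whose gap to its nearest neighbour exceeded Dixon's 95% critical value as a share of the range, and chance alone gives about 1 in 20. Slc25a1 in female replicate 1 (1380 normalized reads) was one. Slc25a33 (1651) and Slc25a53 (134) in male replicate 5 were others. Slc25a3 in male replicate 1 was lowest at 90120, within a group whose values otherwise nearly coincide. The Slc25a5 share of the ADP/ATP pair was 7.47% in male replicate 3.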

How the results depend on the processing

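The count of members called, 0 in each direction, was the same under every alternative run, and the log2 fold change of 27 members kept its sign under all of them. The other 14 members changed sign in at least 1 alternative. With total reads as a covariate the log2 fold change was -0.0079 for Slc25a4, 0.0030 for Slc25a12, 0.034 for Slc25a1, 0.020 for Slc25a36, 0.039 for Slc25a47, -0.015 for Slc25a14 and 0.41 for Slc25a43. In the 5 hearts with most reads it was -0.0051 for Slc25a4, -0.012 for Slc25a3, 0.011 for Slc25a17, 0.089 for Slc25a1, 0.086 for Slc25a10, -0.020 for Slc25a27, -0.12 for Slc25a14 and 0.20 for Slc25a43. edgeR gave -0.00054 for Slc25a3, 0.0029 for Slc25a1 and -0.0037 for Slc25a14 with upper quartile factors, 0.0049 for Slc25a1 and -0.00074 for Slc25a14 with TMM factors, and 0.0056 for Slc25a1 and -0.00044 for Slc25a14 with RLE factors. DESeq2 gave 0.0032 for Slc25a1 and -0.0022 for Slc25a14, and limma-voom -0.010 for Slc25a14. The cause was not tested. Leaving out 1 heart at a time gave ranges of -0.015 to 0.022 for Slc25a4, -0.029 to 0.021 for Slc25a3, -0.032 to 0.021 for Slc25a12, -0.018 to 0.097 for Slc25a42, -0.46 to 0.037 for Slc25a1, -0.067 to 0.0084 for Slc25a36, -0.12 to 0.040 for Slc25a10, -0.020 to 0.017 for Slc25a37, -0.0038 to 0.11 for Slc25a27, -0.14 to 0.034 for Slc25a47, -0.045 to 0.064 for Slc25a14, -0.12 to 0.077 for Slc25a53 and -0.29 to 0.16 for Slc25a43. The log2 difference of the pairs ranged from -0.11 to -0.046 for Slc25a5 over Slc25a4, -0.13 to -0.064 for Slc25a13 over Slc25a12, 0.085 to 0.35 for Slc25a18 over Slc25a22, -0.084 to -0.027 for Slc25a37 over Slc25a28, -0.29 to -0.043 for Slc25a33 over Slc25a36, 0.10 to 0.20 for Slc25a40 over Slc25a39, 0.0028 to 0.096 for Slc25a24 over Slc25a23 and -0.28 to -0.15 for Slc25a25 over Slc25a23, and no sign changed.

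Not every pair of same-numbered hearts deviated together, so the numbers were not taken as pairs: deviations of same-numbered hearts correlated at 0.193, -0.0738 and -0.0944 for title numbers 1, 3 and 4 over 12777 genes, and at 0.193, -0.0738 and 0.193 for library codes 1, 3 and 5. With a replicate block by title number, 0 members were called, and the log2 fold change was 0.0088 for Slc25a12, 0.068 for Slc25a10, -0.051 for Slc25a27 and 0.10 for Slc25a53. With a replicate block by library code it was -0.033 for Slc25a42, 0.10 for Slc25a1, 0.040 for Slc25a10, 0.022 for Slc25a37, -0.0014 for Slc25a27 and 0.0036 for Slc25a53, with 0 members called. By principal transcript length the Slc25a4 share was 55.9% and its ratio to Slc25a3 was 2.60. Besides the fits without 1 heart, the Tomm5 call was lost in the block fits (limma adjusted p = 0.0742 and 0.158) and in the 5 hearts with most reads (0.0754), with log2 fold changes of -0.21, -0.22 and -0.23. The other 9 of 12 alternatives kept it, among them edgeR with TMM (adjusted p = 0.0288), limma-voom (0.0216) and DESeq2 (0.000164). Slc25a18, Slc25a31 and Slc25a43, the members of lowest level, had the widest intervals beside that of Slc25a1. The part of depth in these intervals was not tested.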
